A study of Mus musculus with 71 samples.

Results

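The red cell membrane skeleton genes are Slc4a1, Ank1, Sptb, Epb41, Epb42, Dmtn, Add2 and Tmod1. They were taken by gene symbol, and all 8 are among the 10508 genes whose normalised expression was deposited for whole blood. The blood came from female Balb/c AnNRj mice of a model of systemic sclerosis, a disease of autoimmunity and fibrosis, in which hypochlorous acid (HOCl) is injected into the skin of the back. The mice fall into 6 groups: control mice, which received PBS in place of HOCl (n = 11), HOCl mice with no treatment (n = 12), and mice that received HOCl and E07, D11, D06 or BPR21 (n = 12 each). E07 and D11 are monoclonal antibodies (mAbs) against galectin-3, a lectin that binds sugar chains, with a mutated Fc part, whereas what D06 and BPR21 are is not given in the sources used here. None of these groups is labelled as an isotype control antibody, all 5 HOCl groups share the injections, and HOCl was given on 5 days per week for 6 weeks to mice that were 6 weeks old at inclusion. Experimental and control groups were kept in separate cages, so cage and group cannot be told apart, and the methods describe earlier blood draws from the mice, whose part in the results was not tested.

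Under the lipid membrane of a red cell lies a lattice of spectrin, held at nodes of short actin filaments. Spectrin is tied to the membrane through ankyrin-1 (Ank1), which binds both beta-spectrin (Sptb) and the anion exchanger band 3 (Slc4a1), and protein 4.2 (Epb42) strengthens that link. At the actin nodes, protein 4.1 (Epb41), dematin (Dmtn) and beta-adducin (Add2) join spectrin to actin, and tropomodulin-1 (Tmod1) caps the slow-growing ends of the filaments. Mature red cells have no nucleus, and in circulating blood mRNA of these genes is held chiefly by reticulocytes, the youngest red cells. Inherited defects of several of these proteins cause spherocytosis or elliptocytosis, anaemias in which red cells lose their shape.

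The sequences upstream of the genes are shown because the 8 genes moved together in the blood of these mice. RefSeq start sites on GRCm38.p6, taken with 250 bases before and 50 bases from the start, were found for 5 of the 8 genes and for 7 start sites, 3 of them of Epb41. Motifs of factors used by red cell precursors were searched on both strands: the GATA motif (the letters AGATA followed by either A or G, and likewise the letters TGATA) and the KLF motif (CCNCNCCC, where N is any base). Capitals mark these matches, the sequences run 5′ to 3′ on the strand of the gene, and overlapping matches form a single run of capitals. The windows printed are Epb42 at chr2:121036828-121037127 on the minus strand, Sptb at chr12:76710498-76710797 on the minus strand, Add2 at chr6:86028431-86028730 on the plus strand and Tmod1 at chr4:46038972-46039271 on the plus strand.
Epb42: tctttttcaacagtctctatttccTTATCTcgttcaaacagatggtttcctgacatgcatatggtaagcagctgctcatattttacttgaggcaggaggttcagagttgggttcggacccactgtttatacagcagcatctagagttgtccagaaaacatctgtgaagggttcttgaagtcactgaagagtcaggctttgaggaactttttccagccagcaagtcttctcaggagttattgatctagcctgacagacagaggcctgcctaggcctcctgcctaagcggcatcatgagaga
Sptb: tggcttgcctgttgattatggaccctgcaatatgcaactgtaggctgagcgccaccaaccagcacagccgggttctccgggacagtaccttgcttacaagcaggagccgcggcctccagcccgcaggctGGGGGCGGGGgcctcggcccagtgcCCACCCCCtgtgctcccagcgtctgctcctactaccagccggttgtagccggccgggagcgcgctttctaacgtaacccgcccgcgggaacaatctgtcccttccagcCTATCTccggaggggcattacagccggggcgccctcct
Add2: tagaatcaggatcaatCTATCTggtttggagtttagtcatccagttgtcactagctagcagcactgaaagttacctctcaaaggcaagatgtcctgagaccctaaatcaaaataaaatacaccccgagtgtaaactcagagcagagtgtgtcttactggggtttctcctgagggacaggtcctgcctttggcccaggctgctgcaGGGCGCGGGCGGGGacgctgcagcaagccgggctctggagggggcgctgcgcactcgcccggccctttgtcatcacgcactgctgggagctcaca
Tmod1: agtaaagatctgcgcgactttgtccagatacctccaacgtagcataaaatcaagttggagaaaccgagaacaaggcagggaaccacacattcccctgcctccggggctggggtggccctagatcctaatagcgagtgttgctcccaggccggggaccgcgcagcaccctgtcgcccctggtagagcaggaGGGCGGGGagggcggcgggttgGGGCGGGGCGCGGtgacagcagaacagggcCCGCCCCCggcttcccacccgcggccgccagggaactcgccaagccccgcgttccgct

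The Epb42 window holds 1 GATA match, at position -226 from the start site, and no KLF match. The Sptb window holds 1 GATA match at base 13 of the transcript and 3 KLF matches, and the Add2 window 1 GATA match, at position -234, and 2 KLF matches. Tmod1 has 4 KLF matches and no GATA match. The 3 Epb41 windows are not printed. They hold 1 GATA and 3 KLF matches (chr4:132075264-132075563), 1 GATA and 0 KLF matches (chr4:132072048-132072347) and 0 GATA and 6 KLF matches (chr4:132049029-132049328). Of 32851 promoters of this length, 29.8% hold the GATA motif and 49.5% the KLF motif, so both are common, and a match is only a run of letters. The deposited counts are per gene and cannot tell which start site was used.

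The gene counts of a mouse summed to 11932855 at the lowest and 15948972 at the highest. Epb41 and Slc4a1 were among the most abundant mRNAs, with median counts of 17150 and 13141 per mouse, above the medians of 99.2% and 98.9% of the deposited genes. Median counts were 1651 for Sptb, 1289 for Epb42, 551 for Tmod1, 473 for Add2, 343 for Ank1 and 299 for Dmtn. Per kilobase of annotated exon, Slc4a1 led with a median level of 190.4 CPM (counts scaled to the library total) per kb, followed by Epb41 at 73.8 and Epb42 at 17.5, with Dmtn lowest at 1.70. The length joins all annotated exons of a gene, 4.89 kb for Slc4a1 and 12.9 kb for Dmtn, so this order rests in part on the annotation. The lowest count of any of the genes in any mouse was 68, in Dmtn, so every gene was detected in every mouse.

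Summed, the 8 genes held 0.452% ± 0.131 (SD, n = 12) of the library in HOCl mice, compared with 0.203% ± 0.0740 (SD, n = 11) in the PBS group and 0.178% ± 0.0768 (SD, n = 12) after E07. The share was 0.255% ± 0.126 in D11, 0.252% ± 0.0808 in BPR21 and 0.346% ± 0.228 in D06 mice (n = 12 each). The D06 share reached 1.05% in D06 mouse 5, the highest of all mice. A list of 20 other genes of red cell precursors was measured beside them, at 7.88% ± 2.59 of counts in control, 12.4% ± 2.46 in HOCl and 7.45% ± 1.65 in E07 mice, of which Alas2, the first enzyme of haem synthesis in red cells, held 63.1% of the list's counts. In whole blood, more cells of a type and more RNA per cell cannot be told apart.

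Expression is given below as the deposited vst value, a log2-like scale on which 1 unit at high levels is a doubling. The vst table lacks HOCl mouse 8, so the HOCl group comprises 11 mice in these values. A change was called at an FDR of at most 0.05 over all genes and a fold change of at least 1.3 with limma, and adjusted p-values are those of Benjamini-Hochberg. Gene coordinates below are on GRCm39. The first question was which of these genes HOCl changed, and the next whether the treated mice differed from HOCl mice.

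All 8 genes were higher in HOCl than in control mice, and all 8 were lower in E07 than in HOCl mice, by 1.88- to 3.48-fold and by 2.17- to 4.1-fold on the vst scale. With edgeR, a test on counts, the ranges given further below were of larger changes. Among all genes 4.96% were called in the first comparison and 7.89% in the second. None of the 8 was called in D11, BPR21 or D06 against HOCl mice, where 0.0571%, 0.638% and 0.133% of all genes were called. Against control mice, 8 were higher in D06 (7.88% of all genes called) and none was called in E07 (0.00952%), D11 (0.0761%) or BPR21 (0.504%). E07 and control mice differed by -0.36 to 0.05 over the 8 genes, with 0 unadjusted p-values under 0.05 (799 over all 10508 genes). These comparisons share the HOCl or the control mice, so their values are given side by side and are not independent of one another.

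**Figure D1:**
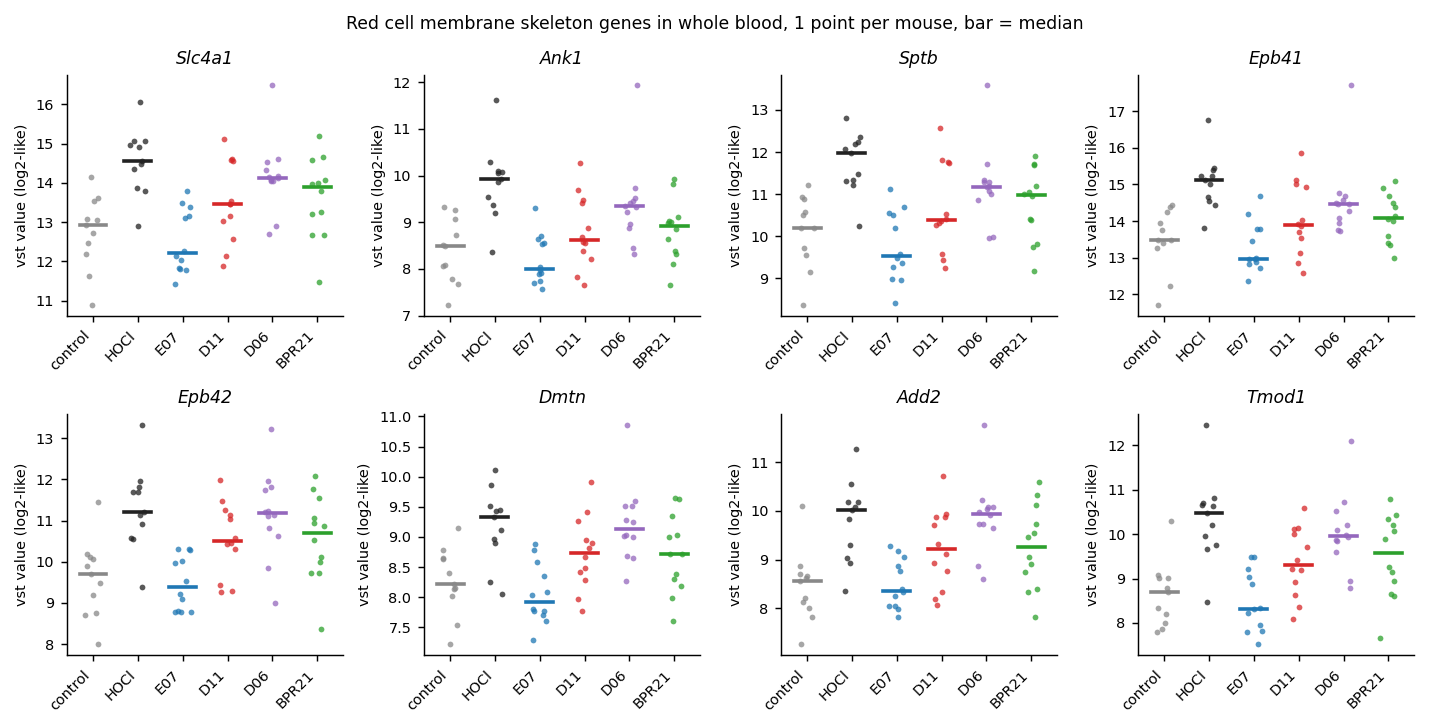
vst value (log2-like scale) of each of the 8 genes in each mouse of the 6 groups, with 1 point per mouse and a bar at the median. In every panel the HOCl bar lies above the control and E07 bars, and HOCl mouse 7 and D06 mouse 5 are the highest points of their groups.

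Slc4a1 (ENSMUSG00000006574, chr11:102239650-102257029, minus strand) encodes band 3, which exchanges chloride for bicarbonate and anchors the skeleton. Its vst value ran from 10.89 to 14.15 in control mice (median 12.94) and from 12.91 to 16.07 in HOCl mice (median 14.57). In 8 of 11 HOCl mice it was above every control mouse, although HOCl mouse 1 lay below the control median. The log2 fold change was 1.80 (SE 0.33, adjusted p = 0.00356), or 3.48-fold. It ran from 11.42 to 13.79 in E07 mice (median 12.20), and 7 of 12 E07 mice were below every HOCl mouse. It fell by 2.03 on the log2 scale (SE 0.30, adjusted p = 0.000115) against HOCl mice, the largest change of the 8 genes in vst values. E07 differed from control mice by -0.23 (adjusted p = 0.941) with a 95% interval of -0.89 to 0.42. Values of D11 mice spread from 11.88 to 15.11 (median 13.46), those of BPR21 mice from 11.47 to 15.19 (median 13.89) and those of D06 mice from 12.69 to 16.48 (median 14.14). These groups overlapped HOCl mice, with 3 D11 and 3 BPR21 mice below all of them.

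Ank1 (ENSMUSG00000031543, chr8:23464860-23640513, plus strand) encodes ankyrin-1, the adaptor between band 3 and beta-spectrin. The lowest, median and highest vst values were 7.23, 8.5 and 9.32 in control mice and 8.36, 9.92 and 11.62 in HOCl mice, a log2 fold change of 1.47 (SE 0.28, adjusted p = 0.00420). They were 7.57, 8.00 and 9.29 in E07 mice, where Ank1 fell by 1.64 on the log2 scale (SE 0.25, adjusted p = 0.000120). Thus 9 of 11 HOCl mice were above every control mouse, and 7 of 12 E07 mice below every HOCl mouse. In D11 mice the 3 values were 7.66, 8.63 and 10.26, in BPR21 mice 7.65, 8.91 and 9.92 and in D06 mice 8.33, 9.34 and 11.93. The BPR21 difference from HOCl, -1.03 (adjusted p = 0.0716), was the nearest to the threshold among the genes, with 11 of 12 BPR21 mice below the HOCl median. The locus also contains Mir486 on the same strand, which had no counts.

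Epb42 (ENSMUSG00000023216, chr2:120848372-120867553, minus strand) encodes protein 4.2, a relative of transglutaminases without enzyme activity that joins band 3 to ankyrin. It ran from 8.00 to 11.46 in control mice (median 9.71) and from 9.40 to 13.32 in HOCl mice (median 11.20), with a log2 fold change of 1.70 (SE 0.36, adjusted p = 0.00638). Of the 11 HOCl mice 5 were above every control mouse, and control mouse 12 was the highest of those at 11.46. In E07 mice it ran from 8.78 to 10.32 (median 9.38) and fell by 1.80 on the log2 scale (SE 0.31, adjusted p = 0.000286). The ranges of the other groups were 9.26 to 11.99 in D11, 8.37 to 12.09 in BPR21 and 9.00 to 13.23 in D06 mice, with medians of 10.51, 10.69 and 11.18. The D06 median was close to that of HOCl mice, with 6 of 12 D06 mice on either side of it.

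Sptb (ENSMUSG00000021061, chr12:76627247-76757321, minus strand), the beta chain of red cell spectrin, had the smallest unadjusted p of the 8 genes in both main comparisons. Its vst value ran from 8.37 to 11.23 in control mice (median 10.21) and from 10.25 to 12.82 in HOCl mice (median 11.98), and all 11 HOCl mice were above the control median. The log2 fold change was 1.63 (SE 0.30, adjusted p = 0.00354). In E07 mice the range was 8.41 to 11.12 (median 9.53), 8 of 12 mice lay below every HOCl mouse, and Sptb fell by 1.99 on the log2 scale (SE 0.29, adjusted p = 0.000115). In D11 mice it ran from 9.26 to 12.56 (median 10.38), in BPR21 mice from 9.19 to 11.90 (median 10.99) and in D06 mice from 9.96 to 13.58 (median 11.18). All 12 BPR21 mice lay below the HOCl median of Sptb, yet the difference of -1.0 (adjusted p = 0.110) was not called. Its end overlaps Plekhg3 on the opposite strand, which had a mean of 232.3 counts per mouse against 1820 for Sptb, and whether the counting used strand is not given in the sources used here.

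Epb41 (ENSMUSG00000028906, chr4:131650724-131802632, minus strand), protein 4.1, which tightens the spectrin and actin junction, was the most abundant of the 8 in counts. It ran from 11.72 to 14.45 in control mice (median 13.50) and from 13.80 to 16.76 in HOCl mice (median 15.12), a log2 fold change of 1.57 (SE 0.30, adjusted p = 0.00433). All 11 HOCl mice were above the control median and 9 were above every control mouse. In E07 mice the range was 12.36 to 14.69 (median 12.98), and Epb41 fell by 1.76 on the log2 scale (SE 0.27, adjusted p = 0.000117). With 10 of 12 E07 mice below every HOCl mouse, these groups overlapped least for Epb41. D11 mice ran from 12.57 to 15.85 (median 13.90), BPR21 mice from 13.01 to 15.10 (median 14.09) and D06 mice from 13.74 to 17.70 (median 14.46). All 12 BPR21 and 11 of 12 D11 and D06 mice were below the HOCl median, and none of these differences was called.

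Dmtn (ENSMUSG00000022099, chr14:70838029-70873611, minus strand), dematin, bundles actin and binds spectrin, and it showed the smallest changes of the 8 genes in vst values. The lowest, median and highest vst values were 7.22, 8.21 and 9.15 in control and 8.05, 9.33 and 10.10 in HOCl mice, a log2 fold change of 0.91 (SE 0.22, adjusted p = 0.0139). In E07 mice they were 7.29, 7.93 and 8.88, and Dmtn fell by 1.12 on the log2 scale (SE 0.21, adjusted p = 0.000546). Both changes were called, and all 12 E07 mice were below the HOCl median. In D11, BPR21 and D06 mice the medians were 8.74, 8.72 and 9.14, within ranges of 7.77 to 9.92, 7.60 to 9.65 and 8.27 to 10.86.

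Add2 (ENSMUSG00000030000, chr6:86005550-86101707, plus strand), beta-adducin, caps fast-growing actin ends and recruits spectrin to them. Its values were 7.27, 8.57 and 10.10 (lowest, median, highest) in control and 8.36, 10.02 and 11.26 in HOCl mice, a log2 fold change of 1.34 (SE 0.29, adjusted p = 0.00696). In E07 mice they were 7.82, 8.36 and 9.27, and Add2 fell by 1.3 on the log2 scale (SE 0.25, adjusted p = 0.000776). Control mouse 12 was the highest control mouse for this gene and for 6 more of the 8, and 4 of 11 HOCl mice stood above every control mouse. The ranges were 8.06 to 10.72 in D11 mice (median 9.21), 7.82 to 10.60 in BPR21 mice (median 9.26) and 8.61 to 11.77 in D06 mice (median 9.94). Add2 and Dmtn were the genes whose mean was higher in D06 than in HOCl mice, by 0.09 (adjusted p = 0.925) and 0.04 (adjusted p = 0.956), neither of which was called.

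Tmod1 (ENSMUSG00000028328, chr4:46038541-46116036, plus strand), the cap of slow-growing actin ends, ran from 7.79 to 10.31 in control mice (median 8.71) and from 8.46 to 12.46 in HOCl mice (median 10.48), a log2 fold change of 1.70 (SE 0.32, adjusted p = 0.00418). In E07 mice it ran from 7.52 to 9.49 (median 8.32) and fell by 1.84 on the log2 scale (SE 0.31, adjusted p = 0.000245). All 12 E07 mice were below the HOCl median and 10 of 11 HOCl mice above the control median. Its range was 8.09 to 10.58 in D11 mice (median 9.31), 7.66 to 10.78 in BPR21 mice (median 9.57) and 8.78 to 12.10 in D06 mice (median 9.96). Tmod1 overlaps Tstd2 on the opposite strand, which had a mean of 212.2 counts per mouse against 646.8.

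The same mice were at the ends of each group for most genes. HOCl mouse 7 was the highest and HOCl mouse 1 the lowest HOCl mouse for all 8 genes, and D06 mouse 5, D11 mouse 3, control mouse 7 and BPR21 mouse 1 were likewise the highest or the lowest of their group for all 8. Without HOCl mouse 7, 8 genes were still higher in HOCl than in control mice (log2 fold change 0.82 to 1.65), and 8 were lower in E07 than in HOCl mice (-1.89 to -1.03). Leaving out any other single mouse kept 8 calls in both comparisons.

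**Figure D2:**
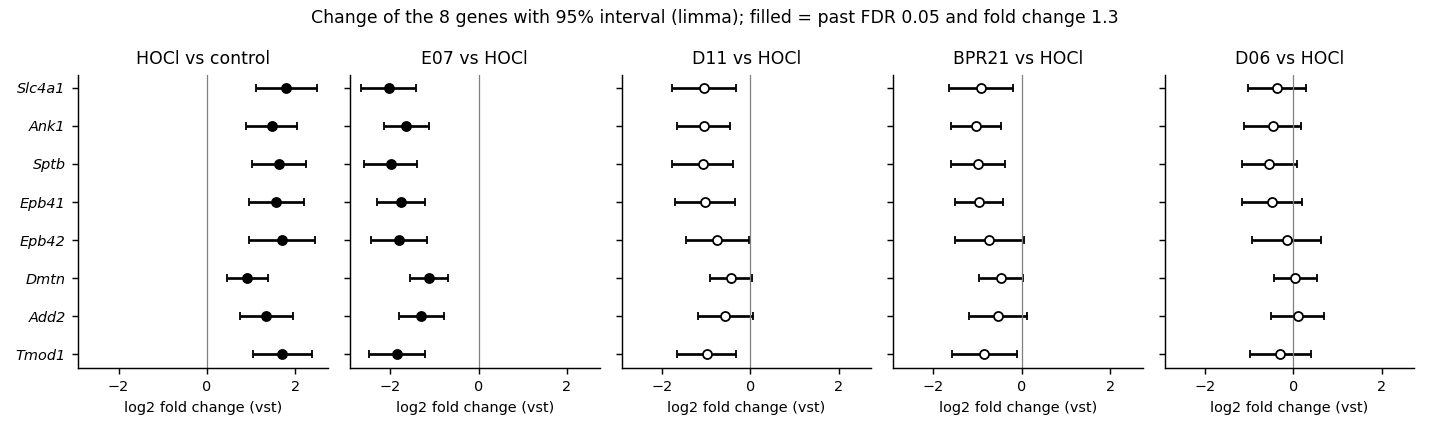
log2 fold change (vst scale) of each gene in HOCl against control mice and in the 4 treated groups against HOCl mice, with the 95% interval from limma and filled points for genes past both thresholds. Every HOCl point lies above 0 and every E07 point below 0, whereas the D11 and BPR21 points lie between -1.08 and -0.44 and are open.

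The means of D11 and BPR21 mice lay between those of HOCl and control mice for all 8 genes. In D11 mice the log2 fold changes from HOCl were -1.08 to -0.44 (adjusted p = 0.121 to 0.409, limma). Of the 8 genes 6 had an unadjusted p under 0.05, as had 1483 of all 10508 genes. For Slc4a1 the 95% interval in D11 against HOCl mice was -1.76 to -0.33. In BPR21 mice the changes were -1.03 to -0.47 (adjusted p = 0.0716 to 0.451, limma), with 5 unadjusted p-values under 0.05 (1474 over all genes). Without HOCl mouse 1, the lowest HOCl mouse, Ank1, Sptb and Epb41 were called lower in BPR21 mice, and without BPR21 mouse 12 Ank1 alone was called. Against control mice the changes were 0.42 to 0.95 in D11 and 0.43 to 0.96 in BPR21 mice, with 0 calls in each and adjusted p of at least 0.156 and 0.138. Without control mouse 12, Epb42, Add2 and Tmod1 were called higher in both groups, and without BPR21 mouse 1 Epb42 and Tmod1 were called higher in BPR21 mice. Calls over all genes moved as well, from 8 to 544 in D11 against control and from 53 to 650 in BPR21 against control mice without control mouse 12, and to 488 without BPR21 mouse 1.

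The means of D06 mice were next to those of HOCl mice for all 8 genes. Their log2 fold changes from HOCl were -0.55 to 0.09 (adjusted p = 0.455 to 0.956, limma), and the 95% interval for Slc4a1 was -1.04 to 0.29. Of the 8 genes 0 had an unadjusted p under 0.05, against 1338 of all 10508 genes. Against control mice all 8 genes were higher, from 0.96 (SE 0.22, adjusted p = 0.00595) for Dmtn to 1.54 (SE 0.36, adjusted p = 0.00605) for Epb42. Without D06 mouse 5, 8 genes were still called (0.77 to 1.35). Epb41 was the nearest to the threshold, with an adjusted p of 0.0437, and passed in 10 of 23 fits with 1 mouse left out. Without control mouse 1, 2 or 7, Ank1, Sptb and Epb41 were not called and 5 genes passed. With DESeq2 7 genes were called, without Ank1 (0.88, adjusted p = 0.0608), and under scaling to the total count 7, without Epb41 (0.53, adjusted p = 0.0758), where 1072 of 10501 and 7039 of 10501 genes were called.

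The treated groups were also compared with each other. E07 mice were below D11 mice for 3 genes (4.57% of all genes called): Epb42 at -1.06 (SE 0.28, adjusted p = 0.0275), Dmtn at -0.68 (SE 0.20, adjusted p = 0.0429) and Tmod1 at -0.86 (SE 0.27, adjusted p = 0.0494). All 8 log2 fold changes were negative (-1.06 to -0.59) with unadjusted p under 0.05, as had 2192 of all 10508 genes. Which genes were called moved with single mice: Epb42 passed in 22 of 24 fits with 1 mouse left out, and Dmtn and Tmod1 in 8 each, and none of the 8 passed without E07 mouse 8 or 9. D06 mice were above E07 mice for all 8 genes, by 1.16 to 1.66 (adjusted p = 0.000120 to 0.00467; 9.76% of all genes called). BPR21 mice were above E07 mice for 6 genes (7.26% of all genes called), from 0.65 (adjusted p = 0.0471) for Dmtn to 1.11 (adjusted p = 0.0371) for Slc4a1, but not for Ank1 at 0.60 (adjusted p = 0.0721) and Add2 at 0.76 (adjusted p = 0.0573). None of the 8 passed in 12 of the 24 fits with 1 mouse left out, which were those without E07 mouse 1, 2, 4, 7, 8, 9 or 10 or without BPR21 mouse 6, 8, 9, 11 or 12. None of the 8 was called between D06 and D11 mice (0.48 to 0.69; 0% of all genes called with limma, 655 genes at an unadjusted p under 0.05), and edgeR and DESeq2 on counts called 0 genes as well. The same held for BPR21 against D11 mice (-0.03 to 0.13; 0% called, 621 genes at an unadjusted p under 0.05), where DESeq2 called 2 genes and edgeR 0. BPR21 against D06 mice gave -0.63 to -0.45 and 0 calls (0.0571% of all genes called).

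By mean vst value the order of the groups was HOCl, D06, BPR21, D11, control and E07 for Slc4a1, Ank1, Sptb, Epb41, Epb42 and Tmod1. For Dmtn it was D06, HOCl, D11, BPR21, control and E07, and for Add2 D06, HOCl, BPR21, D11, E07 and control. In none of these orders did neighbouring groups differ past both thresholds for the gene concerned. Each difference called lay between groups further apart in that order.

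All 8 genes kept their direction in both main comparisons under the other scalings tried. The vst values rest on size factors, under which the median change of all genes was -0.02 in HOCl against control and 0.02 in E07 against HOCl mice. Under scaling to the total count, the median of all genes moved to -0.47 and 0.49. The 8 genes still rose by 0.78 to 1.59 in HOCl mice and changed by -1.76 to -1.06 in E07 mice, and 8 of 8 were called in both, but so were 52.0% and 65.5% of all genes. Of the genes called under that scaling, 327 were higher and 5132 lower in HOCl mice (503 and 18 on vst values), and 6558 were higher and 324 lower in E07 mice (92 and 737 on vst values). With edgeR on counts the changes were 1.20 to 2.12 and -2.33 to -1.51, again with 8 of 8 called in both, beside 5.12% and 11.2% of all genes. With a score of the red cell precursor list as a covariate, 0 of 8 were called in both, at -0.0029 to 0.40 and -0.55 to 0.07. The same fits with limma called 0.00952% and 0% of all genes (1 and 0 of 10508, with 1368 and 1150 genes at an unadjusted p under 0.05), so the loss of calls was general and not a result about these 8 genes. The score moved with both groups and with the 8 genes (r = 0.94 with their mean over 70 mice), so the group and the score cannot be told apart.

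**Figure D3:**
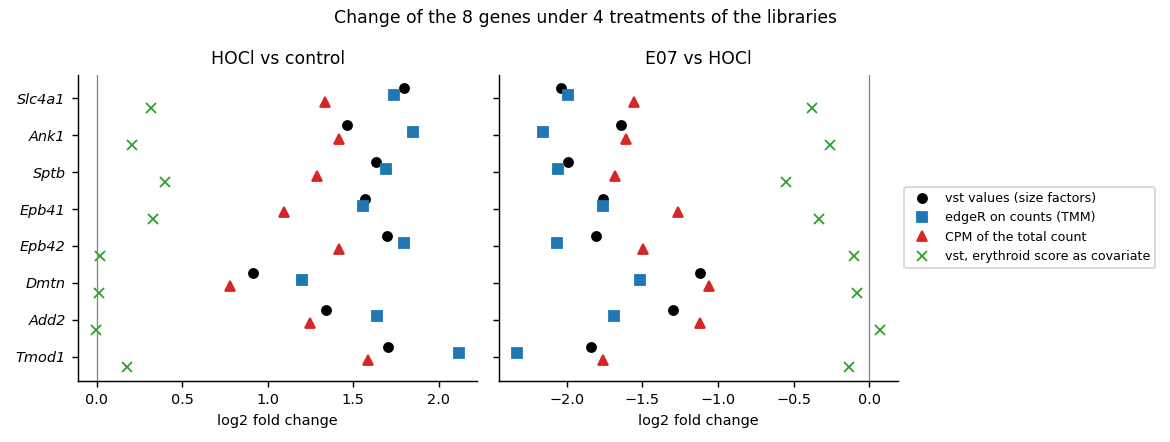
log2 fold change of the 8 genes in HOCl against control and in E07 against HOCl mice, under 4 ways of treating the libraries: vst values, edgeR on counts, CPM of the total count, and vst values with the red cell precursor score as a covariate. In the first 3 the genes rise with HOCl and fall with E07, and the values with the covariate lie between -0.0029 and 0.40 in the first comparison and between -0.55 and 0.07 in the second.

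To compare the genes with each other free of library scaling, each gene's count was divided by the summed counts of the 8 genes in the same mouse. Epb41 took 48.8% to 56.0% of the sum and Slc4a1 32.2% to 36.8% as group means. Of 40 permutation tests (two-sided, 100000 resamples, Benjamini-Hochberg over the 40), 4 passed an adjusted p of 0.05. These shares use all 12 HOCl mice.

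Dmtn took 0.658% to 1.07% in control mice (median 0.825%), 0.450% to 1.03% in HOCl mice (median 0.651%), 0.572% to 1.14% in D11 mice (median 0.952%) and 0.510% to 1.39% in D06 mice (median 0.910%). Its share was lower in HOCl than in control mice, with a difference of -0.43 on the log2 scale (permutation test, adjusted p = 0.0382) and 10 of 12 HOCl mice below the control median. It was higher in D11 than in HOCl mice, by 0.48 on the log2 scale (permutation test, adjusted p = 0.0368), and in D06 than in HOCl mice, by 0.51 on the log2 scale (permutation test, adjusted p = 0.0382). In D11 and in D06 11 of 12 mice were above the HOCl median. Add2 took 0.835% to 1.67% in HOCl mice (median 1.06%) and 0.989% to 2.40% in D06 mice (median 1.61%), a difference of 0.55 on the log2 scale (permutation test, adjusted p = 0.0368), again with 11 of 12 D06 mice above the HOCl median. In HOCl mice Dmtn therefore rose by less than the sum of the 8 genes. Without HOCl mouse 8 the HOCl against control and D06 differences of Dmtn had an adjusted p of 0.0501 each and did not pass, while the share of Ank1 passed as lower in D11 and BPR21 than in HOCl mice, at -0.31 on the log2 scale (permutation test, adjusted p = 0.0378) and -0.36 on the log2 scale (permutation test, adjusted p = 0.0378). In E07 mice no share passed, with adjusted p of at least 0.0594.

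**Figure D4:**
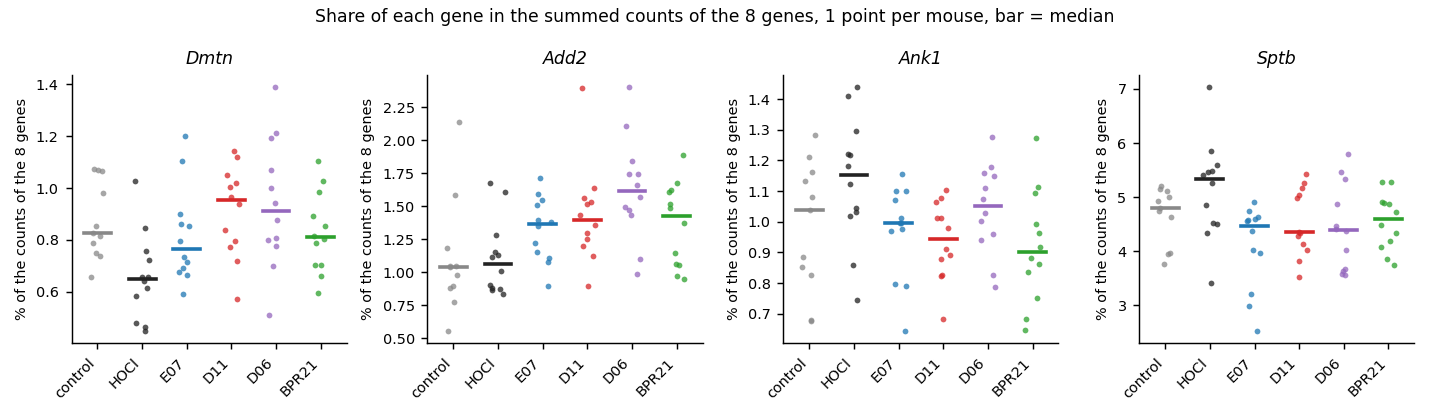
Share of Dmtn, Add2, Ank1 and Sptb in the summed counts of the 8 genes (%), with 1 point per mouse in the 6 groups and a bar at the median. By median Dmtn is lower in HOCl than in control, D11 and D06 mice, with overlapping ranges, and Add2 is highest in D06 mice. Without HOCl mouse 8 the differences of Dmtn from control and D06 mice did not pass.

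Divided instead by the counts of the red cell precursor list, in which Alas2 weighs most, 26 of the 40 differences passed. In HOCl against control mice 7 genes were higher relative to the list, from 0.39 on the log2 scale (permutation test, adjusted p = 0.00153) for Epb41 to 0.91 on the log2 scale (permutation test, adjusted p = 0.00153) for Tmod1, and Dmtn differed by 0.07 on the log2 scale (permutation test, adjusted p = 0.692). In E07 against HOCl mice, Slc4a1, Ank1, Sptb, Epb41, Epb42 and Tmod1 were lower relative to the list. Slc4a1, Ank1, Sptb, Epb41 and Tmod1 were so in D11 and in BPR21 mice, and Ank1, Sptb and Epb41 in D06 mice. For Sptb in E07 mice the difference was -1.0 on the log2 scale (permutation test, adjusted p = 0.000400), and for Ank1 it was -0.79 on the log2 scale (permutation test, adjusted p = 0.00128) in D11, -0.85 on the log2 scale (permutation test, adjusted p = 0.000500) in BPR21 and -0.43 on the log2 scale (permutation test, adjusted p = 0.0378) in D06 mice. The 8 genes and the list therefore did not move in a fixed ratio.

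Of 21 partner genes of the red cell membrane, 20 were measured, and 13 were higher in HOCl than in control mice (median of the 20, 0.55) and 13 lower in E07 than in HOCl mice (median -0.59). Among those with the largest change with HOCl were Mpp1, a scaffold bound to protein 4.1, at 1.62 (SE 0.30, adjusted p = 0.00356), and Kel, a blood group antigen, at 1.5 (SE 0.27, adjusted p = 0.00354). In E07 against HOCl mice Mpp1 changed by -1.85 (SE 0.28, adjusted p = 0.000129) and Kel by -1.48 (SE 0.25, adjusted p = 0.000256). Under scaling to the total count 8 partners were higher and 1 lower in HOCl mice, and 4 were higher and 8 lower in E07 mice, against the shifted median of all genes given above. None of the 20 was called in D11, BPR21 or D06 against HOCl mice, and 13 were higher in D06 than in control mice.

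Most relatives of the 8 genes that are used widely outside red cells were not called in HOCl against control or E07 against HOCl mice. Neither were most of all genes, of which 4.96% and 7.89% were called. Of 17 paralogs 10 were measured, and 1 was called, Add1, alpha-adducin, which was higher in HOCl than in control mice by 0.53 (adjusted p = 0.00480) and lower in E07 than in HOCl mice, at -0.55 (adjusted p = 0.000685). Add1 also pairs with Add2 in red cells, and under scaling to the total count it changed by 0.07 and -0.06 and was not called. Sptbn1, the beta-spectrin of other cells, differed by 0.05 (adjusted p = 0.802) and -0.11 (adjusted p = 0.341), Slc4a2, a broadly expressed anion exchanger, by 0.05 (adjusted p = 0.859) and -0.03 (adjusted p = 0.875), and Tmod3, a tropomodulin of many cell types, by 0.10 (adjusted p = 0.581) and -0.04 (adjusted p = 0.760). The median over the 10 was 0.02 and -0.03, against 1.60 and -1.78 over the 8 genes. Under scaling to the total count, the paralogs were at -0.44 (3 lower, 0 higher) and 0.46 (7 higher, 0 lower), near the medians of all genes under that scaling. Of the other paralogs with the largest differences, Tgm2 was at 0.12 (SE 0.14, adjusted p = 0.700) and Slc4a7 at -0.12 (SE 0.10, adjusted p = 0.588) in HOCl against control mice.

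**Figure D5:**
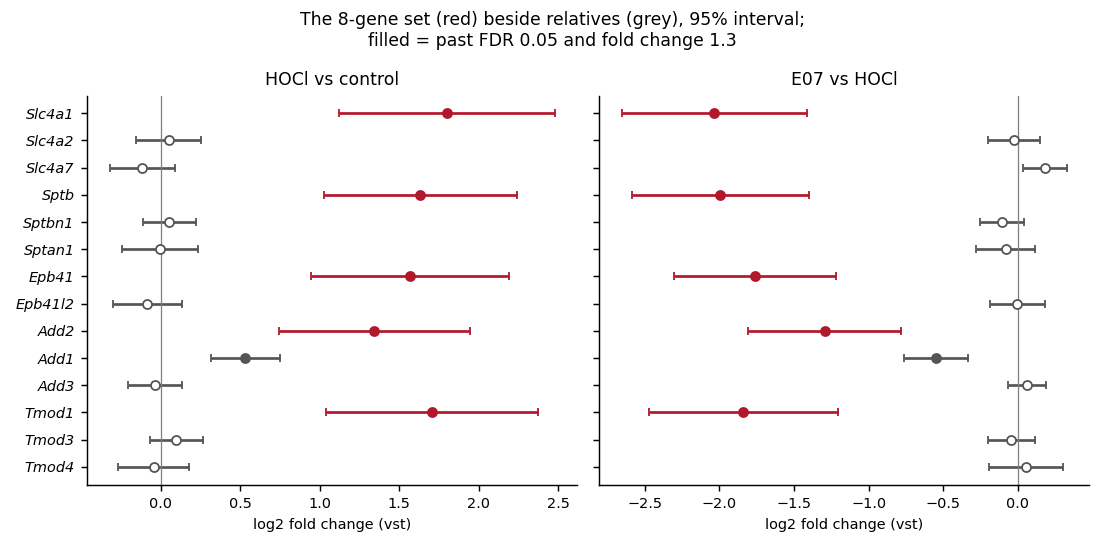
log2 fold change (vst scale) with 95% interval of the genes of 5 families in HOCl against control and in E07 against HOCl mice, with the red cell membrane skeleton genes in red, their relatives in grey, and filled points past both thresholds. Add1 is the filled grey point in both comparisons, and the open grey points lie between -0.12 and 0.18.

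Markers of other cells in blood were examined beside these genes. The red cell precursor list holds none of the 8 genes but was, like them, chosen with earlier results of these data known. Of its 20 measured genes, 13 were higher in HOCl than in control mice and 15 lower in E07 than in HOCl mice. All 5 measured platelet genes were higher in HOCl mice (median 0.54) and lower in E07 mice (median -0.53), but under scaling to the total count 0 of 5 were called. Of 6 neutrophil genes 3 were higher in HOCl mice and 1 lower in E07 mice, and all 5 B cell genes were higher in E07 than in HOCl mice. Summed over its genes, the neutrophil list ranged from 1774 to 10208 CPM in control (median 4395) and from 2507 to 6609 CPM in HOCl mice (median 3573). Its median was thus lower in HOCl than in control mice. The platelet list ranged from 2886 to 5068 CPM in control (median 3382) and from 1632 to 5463 CPM in HOCl mice (median 4003). In E07 mice the platelet list ran from 2989 to 4530 CPM (median 3931), close to HOCl mice by median. The B cell list ran from 1138 to 2390 CPM (median 1894) in E07 mice, against 295 to 1315 CPM (median 953) in HOCl mice. No B cell, T cell, monocyte, NK or eosinophil gene was called in HOCl against control mice on vst values. Under scaling to the total count 5 of 5 B cell, 5 of 5 T cell, 2 of 2 NK and 2 of 4 monocyte genes were lower. So were 5132 of 10501 genes under that scaling, with a median of -0.47 over all genes. In E07 against HOCl mice 1 of 4 monocyte genes was lower and 2 of 3 eosinophil genes higher, and 3 of 4 monocyte genes were lower in BPR21 than in HOCl mice (0 of 4 under scaling to the total count). The part of these markers in the changes of the 8 genes was not tested.

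Within groups the 8 genes varied together from mouse to mouse. After each group's mean was subtracted, the correlations of the 28 pairs of genes over 70 mice were r = 0.85 to 0.98 (median 0.93), lowest for Epb41 with Epb42 and highest for Slc4a1 with Sptb. Epb42, Tmod1 and Add2 were close to one another, at r = 0.97 for Epb42 with Tmod1, 0.96 for Add2 with Tmod1 and 0.95 for Add2 with Epb42. An average of the standardised values of the 8 genes had, within groups, r = 0.93 with the red cell precursor list, 0.39 with the platelet list and 0.14 with the neutrophil list. For the other lists r was -0.36 (T cell), -0.30 (B cell), -0.23 (eosinophil), -0.19 (NK) and 0.0055 (monocyte). These values share each mouse's library and size factor and are given as a description.

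Over all 70 mice the genes most like the mean of the 8 were Bcl2l1, an inhibitor of cell death that red cell precursors need (r = 0.991), Mpp1 (r = 0.991), Tfdp2, a partner of E2F factors (r = 0.986), Acsl1, an acyl-CoA synthetase (r = 0.985), and Vopp1 (r = 0.984). Of 10500 other genes 241 had r over 0.9, against a median of -0.09 over all of them. The likeness is over the 6 groups together and holds their differences in it.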

How the data were processed

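Whole blood RNA of 71 mice was selected for poly A tails, depleted of globin mRNA and sequenced. The authors trimmed reads with Cutadapt, aligned them to mm39 with STAR and deposited read counts per gene from featureCounts for 55416 genes, whose strand setting and annotation are not given in the sources used here. The authors also deposited vst values, a log2-like transform of these counts by DESeq2, for 10508 protein-coding genes that passed their filter on low values, in 70 mice. HOCl mouse 8 has counts and no vst value, and no sample of the series is titled as control mouse 3. Groups came from the sample titles, since another label gives control mice the same value as HOCl mice.

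The 15 pairs of groups were each fitted with limma 3.58.1 (lmFit, eBayes) in R 4.3.3 on all vst genes, without a covariate, and a gene was called where the Benjamini-Hochberg FDR did not exceed 0.05 and the fold change reached 1.3. Shares of the 8 summed counts were compared with permutation tests in scipy 1.17.1. The script was tested on simulated data. The alternatives were 1 fit of all 6 groups, edgeR 4.0.16 and DESeq2 1.42.0 on counts, a filter of at least 10 counts in 11 mice, no filter on low counts, log2(CPM + 1) of the total count, the FDR alone, a red cell precursor score as covariate, the mouse number as block, and each mouse left out. For shares they were the precursor list as denominator, a pseudocount of 1 and HOCl mouse 8 left out. Symbols joined 10501 vst genes to the counts. Totals were 11932855 to 15948972 counts per mouse.

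The 8 genes and all gene lists were chosen with earlier results of these data known. Named beside the 8 genes were, by rule, the 4 partner genes (some of which are not reported here) and 4 paralogs with the largest change in HOCl against control mice and the 5 genes most correlated with the mean of the 8 genes. Slc4a2 and Sptbn1 were named as list members for their place in the families.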

Additional observations from a re-analysis of the deposited data

How the results depend on the processing

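Of 1080 values of single genes under the alternatives, 933 kept their sign and their side of the threshold, 33 kept the sign and no longer passed, 36 came to pass with the same sign, and 78 turned their sign, 58 of them with the red cell precursor score as a covariate. Of the 78, 25 had been called, all of these turned with the covariate, and 0 were called after the turn. The number of the 8 genes called stayed at 8 in HOCl against control, E07 against HOCl and D06 against E07 mice whichever mouse was left out. It ranged from 5 to 8 in D06 against control, 0 to 3 in BPR21 against HOCl, D11 against control and BPR21 against control, 0 to 5 in E07 against D11 and 0 to 8 in BPR21 against E07 mice. With the covariate 0 were called in HOCl against control, E07 against HOCl, D06 against control, E07 against D11, D06 against E07 and BPR21 against E07 mice, where 1, 0, 5, 0, 0 and 0 of all 10508 genes were called, so nearly every gene lost its call. It called 1 in D11 against HOCl (Ank1, beside 2 of all genes) and 5 in BPR21 against HOCl mice (Slc4a1, Ank1, Sptb, Epb41 and Tmod1, beside 219). With DESeq2, 1 was called in D06 against HOCl (176 of all genes), 3 in BPR21 against HOCl (257) and 5 in E07 against D11 mice (845). It called 7 in BPR21 against E07 (1297) and 7 in D06 against control mice (1072). Scaling to the total count called 7 in D06 against control (7039 of 10501 genes) and 4 in BPR21 against E07 mice (4811 of 10501 genes). One fit of all 6 groups called 1 in BPR21 against HOCl (148 of all genes), 0 in E07 against D11 (0) and 4 in BPR21 against E07 mice (702). For E07 against D11 mice, edgeR called 5 (708 of all genes), with the filter of 10 counts 5 (764 of 15211) and without a filter 6 (1464 of 26419). Of the shares, 26 of 40 passed over the precursor list, against 4 over the 8 genes. The cause of these differences between settings and between fits with 1 mouse left out was not tested.

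Add2 was at -0.0029 in HOCl against control and 0.070 in E07 against HOCl mice with the covariate. In D11 against control mice the covariate put Slc4a1 at -0.35, Ank1 at -0.39, Sptb at -0.51, Epb41 at -0.43, Epb42 at -0.061, Dmtn at -0.17, Add2 at -0.10 and Tmod1 at -0.15. In D06 against control mice the covariate put Slc4a1 at -0.24, Ank1 at -0.45, Sptb at -0.44, Epb41 at -0.54, Epb42 at -0.20, Dmtn at -0.073 and Tmod1 at -0.072. In BPR21 against control mice the covariate put Slc4a1 at -0.24, Ank1 at -0.30, Sptb at -0.29, Epb41 at -0.17, Epb42 at -0.17, Dmtn at -0.22, Add2 at -0.11 and Tmod1 at -0.11. In E07 against D11 mice the covariate put Slc4a1 at 0.28, Ank1 at 0.30, Sptb at 0.37, Epb41 at 0.42, Dmtn at 0.075, Add2 at 0.18 and Tmod1 at 0.12. In D06 against E07 mice the covariate put Slc4a1 at -0.23, Ank1 at -0.46, Sptb at -0.37, Epb41 at -0.64, Epb42 at -0.13, Dmtn at -0.036, Add2 at -0.014 and Tmod1 at -0.11. In D06 against D11 mice the covariate put Sptb at -0.093, Epb41 at -0.11 and Epb42 at -0.0021. In BPR21 against E07 mice the covariate put Slc4a1 at -0.10, Ank1 at -0.15, Sptb at -0.043, Epb41 at -0.040, Epb42 at -0.067, Dmtn at -0.086, Add2 at -0.16 and Tmod1 at -0.055. In BPR21 against D11 mice the covariate put Slc4a1 at -0.054, Ank1 at -0.10, Sptb at -0.074, Epb41 at -0.087, Epb42 at -0.15, Add2 at -0.12 and Tmod1 at -0.011. For BPR21 against D11 mice edgeR put Ank1 at -0.071, Sptb at -0.083 and Epb41 at -0.15, edgeR with the filter of 10 counts Ank1 at -0.062, Sptb at -0.072 and Epb41 at -0.14, edgeR without a filter Ank1 at -0.084, Sptb at -0.093 and Epb41 at -0.16, DESeq2 Ank1 at -0.058, Sptb at -0.071 and Epb41 at -0.14, and scaling to the total count Epb42 at -0.028 and Add2 at -0.0053. For E07 against control mice Add2 was turned, to -0.069 with edgeR, -0.060 with the filter, -0.053 without a filter and -0.090 with DESeq2. For D06 against HOCl mice the replicate block put Epb42 at 0.040, and scaling to the total count Dmtn at -0.027.

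Mouse numbers are shared between groups, and what they stand for is not given in the sources used here. After group means were subtracted, same-numbered mice had a mean r of 0.048 in HOCl against control (4 of 10 pairs over r = 0.1). That mean was lowest in BPR21 against D06 mice, at 0.00041. It was highest in E07 against control mice, at 0.15 (7 of 11 pairs over r = 0.1), where other pairs had a mean of -0.0097. Whether the number marks a batch was not tested. When the mouse number entered the fit as a replicate block, the calls were 4 in HOCl against control, 2 in D11 against control, 4 in BPR21 against control, 6 in E07 against D11 and 8 in BPR21 against E07 mice. Calls over all genes moved from 521 to 85, from 8 to 115, from 53 to 534, from 480 to 557 and from 763 to 773 in the same order.

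The counts cannot separate more red cell precursors or reticulocytes from more mRNA in each, and protein was not measured.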
